A study of Bos taurus with 3 samples.

Results

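A group of 7 microRNAs (miRNAs) known to be made outside the usual route, or from an unusual source, was followed in small RNA sequencing of large dense-core vesicles. These vesicles are the organelles in which chromaffin cells of the adrenal medulla store catecholamines and peptides, and they were purified from bovine (Bos taurus) chromaffin cells. The members were chosen by name from the deposited count table, which lists 793 mature miRNAs in 919 rows. They are miR-320a, miR-320b and miR-484 (precursors that need no cut by Drosha), miR-451 (no cut by Dicer), miR-877 and miR-1225 (mirtrons, which are spliced introns) and miR-1306 (a hairpin of the DGCR8 transcript). All 7 base names were found, in 8 rows, because miR-320a has 2 precursor hairpins.

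The series held 3 libraries, each made from 500 ng of RNA with the same kit. No treatment or genotype was named, and the cattle came from a local slaughter. They were 2 technical replicates, averaged and counted as 1 preparation, and 1 biological replicate, so that each mean ± SD is over n = 2 preparations. Neither the repeated step of the technical pair nor the number of animals is named, so the spread between samples may be technical. Where 3 values follow each other, they stand in the order technical replicate 1, technical replicate 2, biological replicate. The total counts were 5546771, 6251664 and 6708654. Levels are in CPM, the count scaled to a common library total. Where no read was counted, a fixed limit of 3 counts was used, which is between 0.447 and 0.541 CPM. The exact 95% interval of a count of 0 reaches higher, to 0.665 CPM in technical replicate 1. Exact Clopper-Pearson 95% intervals and these limits cover counting error only. No whole-cell library was analysed here, so the levels cannot tell vesicle content from other RNA of the preparation, and fewer cells or vesicles of a kind cannot be told apart from less RNA in each. The endocrine markers miR-375 and miR-7 held between 42.8% and 47.3% of the counts. The listed leukocyte markers held at most 0.00784% and the erythrocyte markers at most 0.110%. Higher shares were held by the smooth muscle and fibroblast markers, at most 1.89%, and by the endothelial marker miR-126, at most 0.189%.

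In the usual route, the nuclear enzyme Drosha and its partner DGCR8 cut a hairpin out of a long transcript, and Dicer then removes its loop in the cytoplasm. Precursors of miR-320a and miR-484 are known to start where transcription starts, so that they carry a cap, skip Drosha and are cut by Dicer. Whether this holds for each cattle hairpin of miR-320a was not examined here. Mirtrons skip Drosha because the splicing machinery sets the ends of the hairpin. The precursor of miR-451 is too short for Dicer, is cut by the Argonaute protein AGO2 and is then trimmed. miR-1306 differs from these: its hairpin lies in the messenger RNA of DGCR8, where Drosha and DGCR8 themselves cut it, which lowers the DGCR8 message. miR-1225 has also been described as cut by Drosha without splicing. These routes are background, and read counts of mature miRNAs do not show by which route they were made.

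In the RefSeq gene table for cattle (assembly ARS-UCD2.0, used for names and neighbours only), all 8 precursor hairpins were matched by symbol, and 4 lie within another gene. MIR877 lies within ABCF1, which encodes a protein of translation initiation, and MIR1225 lies within PKD1, the gene of polycystin-1. MIR1306 lies within DGCR8, and MIR320A-2 lies within RNF180. MIR320A-1 lies between PHYHIP and POLR3D, a subunit gene of RNA polymerase III, and MIR484 lies between MARF1 and NDE1. MIR451 lies next to MIR144, and MIR320B lies in no other listed gene. Each of the 8 hairpins had a single mature row, as did 86.8% of the 808 hairpins in the count table, so no comparison of arms was possible.

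Together the 7 miRNAs held 0.336% ± 0.0586 (SD, n = 2) of all miRNA counts. By library the share was 0.281%, 0.307% and 0.377%, with exact 95% intervals of 0.277 to 0.286%, 0.303 to 0.312% and 0.373 to 0.382%. The share differed between the technical replicates by more than counting error, and was highest in the biological replicate. Most of it was miR-320a, with 72.1%, 75.7% and 77.8% of the members' counts. The other 6 members summed to 0.0801% ± 0.00496 of all counts. Of the 7 members, 5 had at least 10 counts in every library, against 43.3% of all 793 miRNAs, and the other 2 stayed under 10 counts in every library.

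**Figure D1:**
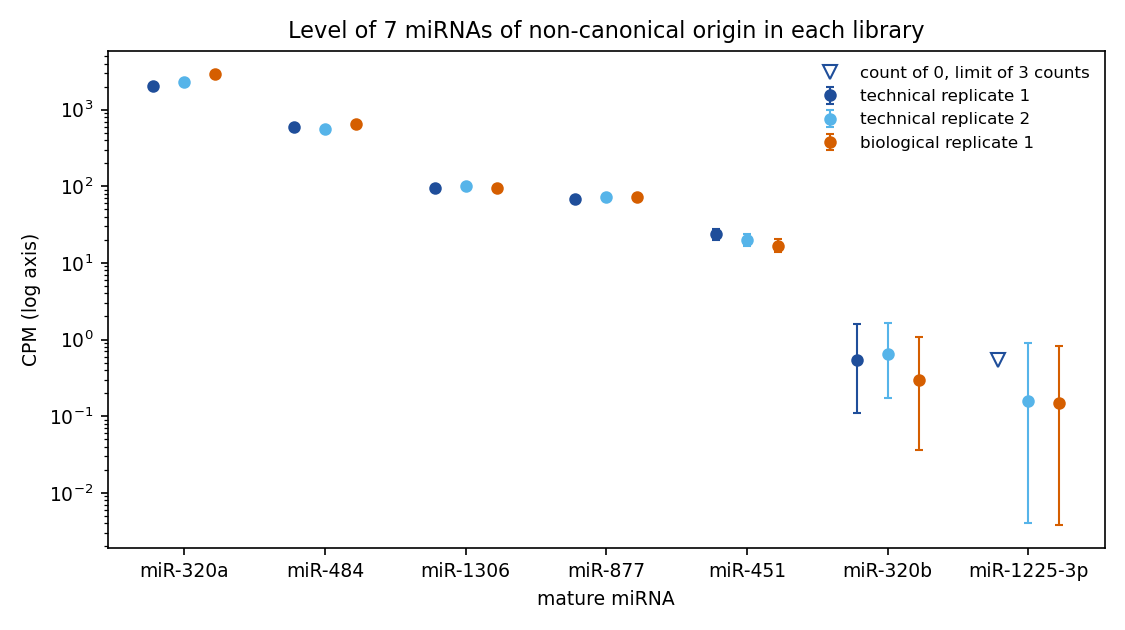
Level of each member in CPM (log axis) in each of the 3 libraries. Points are single libraries, bars are exact 95% counting intervals, and the open triangle marks a count of 0 at its limit of 3 counts. The levels run from 2936 CPM for miR-320a to under 1 CPM for miR-320b and miR-1225-3p.

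Among the Drosha-independent members, miR-320a (MIMAT0003534), a broadly expressed miRNA, was the most abundant. Its counts of 11253, 14543 and 19699 were 2029, 2326 and 2936 CPM. The biological library lay above both technical libraries, and the mean was 2557 ± 537 CPM (SD, n = 2). miR-320a was the 46th, 43rd and 34th most abundant of 793 miRNAs in the 3 libraries. The technical libraries themselves differed beyond counting error, with replicate 2 higher than replicate 1 by a factor of 1.15 (95% interval 1.12 to 1.18). The rows of both miR-320a hairpins carried identical counts in every library, so the reads cannot be assigned to either hairpin and were counted once here.

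miR-484 (MIMAT0003535), known as a regulator of mitochondrial fission, was the next in order. Its counts of 3327, 3454 and 4371 were 599.8, 552 and 652 CPM, with a mean of 614 ± 53.3 CPM (SD, n = 2), and the biological library again lay above both technical libraries. Here technical replicate 2 was the lower of the pair, by a factor of 0.921 (95% interval 0.878 to 0.966). The ratio of miR-320a to miR-484 counts was therefore 3.38 (3.25 to 3.52), 4.21 (4.06 to 4.37) and 4.51 (4.36 to 4.66). The step between the technical replicates was larger than that from technical replicate 2 to the biological replicate. The ratio of these miRNAs thus moved by more than counting error between the technical replicates.

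miR-320b (MIMAT0011991), a relative of miR-320a by name, was close to the limit of detection. It had 3, 4 and 2 counts, or 0.541, 0.640 and 0.298 CPM. miR-320a had 3751 (95% interval 1283 to 18192), 3636 (1420 to 13346) and 9850 (2726 to 81336) times its counts, and these intervals overlap. The miR-320 family has near-identical mature sequences, so how the deposited counting split reads between the 2 names is uncertain.

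The mirtrons stood far apart from each other. miR-877 (MIMAT0009381), from ABCF1, had 373, 447 and 483 counts, or 67.2, 71.5 and 72.0 CPM. All 3 libraries overlapped in their counting intervals, and the mean was 70.7 ± 1.85 CPM (SD, n = 2). The row of miR-1225, from PKD1, was its 3p arm (MIMAT0009952), with 0, 1 and 1 counts. The upper ends of its exact 95% intervals were 0.665, 0.891 and 0.831 CPM. No ratio between these 2 mirtrons is given for technical replicate 1, and in the biological replicate it was 483 to 1 (95% interval 86.3 to 19117).

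miR-1306 (MIMAT0009974), from the DGCR8 transcript, lay just above miR-877. It had 525, 627 and 636 counts, or 94.6, 100.3 and 94.8 CPM, and a mean of 96.1 ± 1.89 CPM (SD, n = 2). The biological library lay between the technical libraries, and all 3 counting intervals overlapped. miR-1306 exceeded miR-877 in each library, with count ratios of 1.41 (1.23 to 1.61), 1.40 (1.24 to 1.59) and 1.32 (1.17 to 1.49).

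miR-451 (MIMAT0009323), the Dicer-independent member and a miRNA best known from red blood cells, was scarce. Its counts of 131, 126 and 113 were 23.6, 20.2 and 16.8 CPM, with a mean of 19.4 ± 3.57 CPM (SD, n = 2). The biological library was the lowest. It lay below technical replicate 1 beyond counting error, by a factor of 0.713 (95% interval 0.550 to 0.924), but not below technical replicate 2 (0.836, 0.643 to 1.09). miR-144, the neighbouring hairpin that is cut by Dicer in the usual way, had 5, 6 and 4 counts. The ratio of miR-451 to miR-144 counts was 26.2 (10.9 to 82.0), 21.0 (9.38 to 58.3) and 28.2 (10.7 to 105), and these intervals overlap. miR-486, also known from red blood cells and from muscle, had 37.0, 40.5 and 64.1 times the counts of miR-451. The interval of the biological replicate (53.2 to 77.9) lay above those of technical replicates 1 and 2 (31.1 to 44.3 and 33.9 to 48.7). The 2 miRNAs thus did not keep a fixed ratio between the libraries.

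The order of levels was miR-320a, miR-484, miR-1306, miR-877, miR-451 in each of the 3 libraries. Neighbours in that order differed by more than their SD over preparations. miR-320b and miR-1225-3p, below them, had overlapping counting intervals in every library and were not separable. Mature miRNAs are read whole, so no correction for length was made, and how readily each miRNA enters a library was not measured here.

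How far these levels repeat was read from the difference between preparations, set beside the difference within the technical pair. On the log2(CPM + 1) scale, miR-320a was higher in the biological replicate than in the technical mean by 0.43 and miR-484 by 0.18, while miR-877 differed by 0.05, miR-1306 by -0.04 and miR-451 by -0.35. Technical replicate 2 differed from technical replicate 1 by 0.20 for miR-320a, -0.12 for miR-484, 0.09 for miR-877, 0.08 for miR-1306 and -0.22 for miR-451. The median absolute difference of the 5 members was 0.18 between preparations and 0.12 within the technical pair, against 0.27 and 0.11 over the 367 miRNAs that reached 10 counts in any library. With this scaling to library totals, the signed median between preparations was -0.16 over all 367 and 0.05 for the members. The absolute medians include that common shift, so they do not show that the members were steadier. The biological library lay above both technical libraries for 3 of the 5 members (24.5% of all tested miRNAs) and below both for 1 (59.1% of all tested). Against technical replicate 2 alone, miR-877 (ratio 1.007, 95% interval 0.884 to 1.15) and miR-451 (0.836, 0.643 to 1.09) were within counting error.

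**Figure D2:**
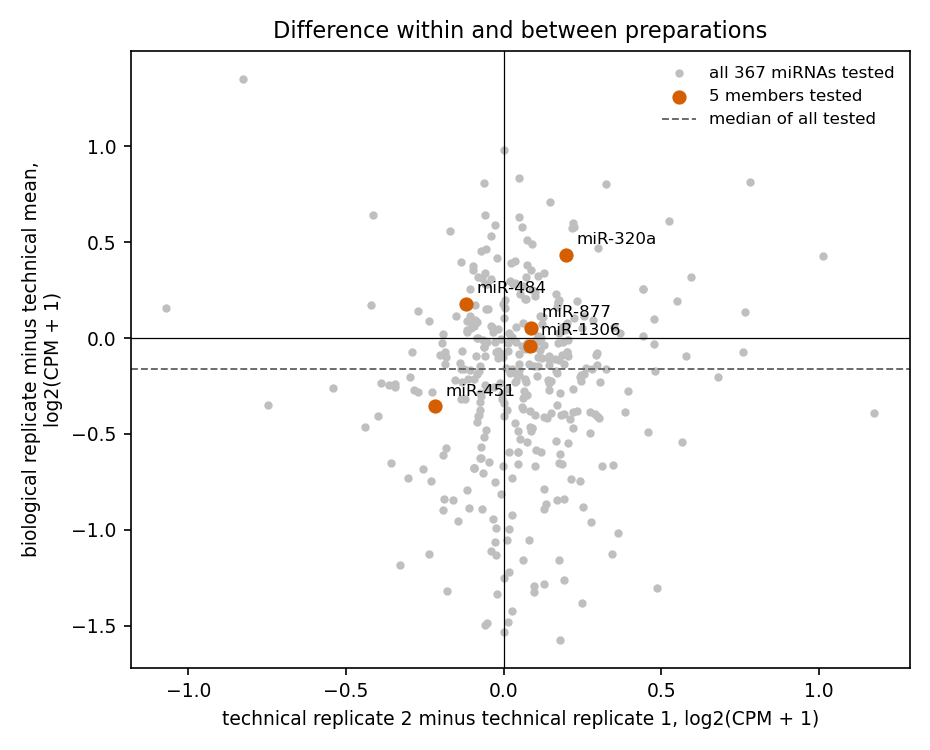
Each point is a miRNA. The horizontal axis is technical replicate 2 minus technical replicate 1 and the vertical axis is the biological replicate minus the technical mean, both in log2(CPM + 1). Grey points are the 367 miRNAs tested, coloured points are the 5 members among them, and the dashed line is the median of all tested, -0.16. miR-320a is the highest and miR-451 the lowest of the members.

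The biological library was also set against the technical pair with edgeR's quasi-likelihood test, in which miR-320a and miR-484 passed as higher and no member as lower. The only spread in this test is that of the technical pair (1 residual degree of freedom), and the other arm is a lone library. A call therefore says that these libraries differ by more than technical libraries do, and its p-value does not measure a difference between preparations or animals. edgeR also pools that spread over miRNAs. With TMM over all 367 miRNAs, the pooled value fully replaced that of each miRNA (infinite prior degrees of freedom). These prior degrees of freedom were 4.3 with library totals and 5.0 with DESeq2 size factors, so adjusted p-values are not comparable in size between fits. With TMM scaling, miR-320a had a log2 fold change of 0.61 ± 0.09 (SE; Benjamini-Hochberg adjusted p = 3.6e-09). miR-484 had 0.36 ± 0.10 (adjusted p = 0.0010). Of the 5 members tested, 2 were thus higher and 0 lower, while 17.7% of the 367 miRNAs tested were called higher and 20.2% lower (37.9% in all). At an unadjusted p below 0.05 the members counted were the same 2, and DESeq2 also called 2 higher and 0 lower. Over all miRNAs 65 were called higher and 74 lower, and 24 higher and 86 lower with library totals in place of TMM. Calls were thus frequent over the whole table, and 2 calls among 5 members are not read as particular to them.

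miR-877 (0.23 ± 0.14, adjusted p = 0.18), miR-1306 (0.14 ± 0.13, adjusted p = 0.44) and miR-451 (-0.19 ± 0.20, adjusted p = 0.51) did not pass the edgeR test. miR-320b and miR-1225-3p had too few counts to be tested. The median log2 fold change of the 5 members was 0.23, against 0.01 over all 367. With library totals it was 0.05, against -0.17 over all 367.

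The scaling moves these fold changes, since TMM raised the biological library by 0.18 log2 units relative to library totals. The fits also differ in how far the spread is pooled, and the part of each in the calls was not tested. With library totals, miR-320a still passed, at 0.43 ± 0.11 (edgeR, adjusted p = 0.036), whereas miR-484, at 0.18 ± 0.10, did not (adjusted p = 0.23). miR-484 also did not pass when the fit was limited to miRNAs averaging 100 CPM or more (0.21 ± 0.10, adjusted p = 0.089). miR-1306 changed sign with library totals, to -0.041 ± 0.11. Over 7 other settings the fold change of miR-320a ran from 0.43 to 0.62, with adjusted p-values from 6.3e-07 to 0.036. The share of counts from smooth muscle and fibroblast markers (6 of 6 with at least 10 counts in every library) moved with this comparison, at 1.68%, 1.89% and 1.02%. The endothelial miR-126 arms (2 of 2) moved likewise, at 0.182%, 0.189% and 0.113%, and so did the leukocyte markers (4 of 5), at 0.00784%, 0.00755% and 0.00507%. The summed share of the endocrine markers miR-375 and miR-7 (2 of 2) was higher in the biological library, at 44.1%, 42.8% and 47.3%. This sum followed miR-375, at 381396, 358079 and 416586 CPM, while the remaining share, that of miR-7, was lowest in the biological library. The summed share of the erythrocyte markers (2 of 3 with at least 10 counts) was also higher there, at 0.0898%, 0.0837% and 0.110%. Of these markers only miR-486 was higher, at 873, 816 and 1079.5 CPM, and it makes up most of the sum. Both miR-451 and miR-144 were lowest in the biological library. The part of these lists in the result was not tested.

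**Figure D3:**
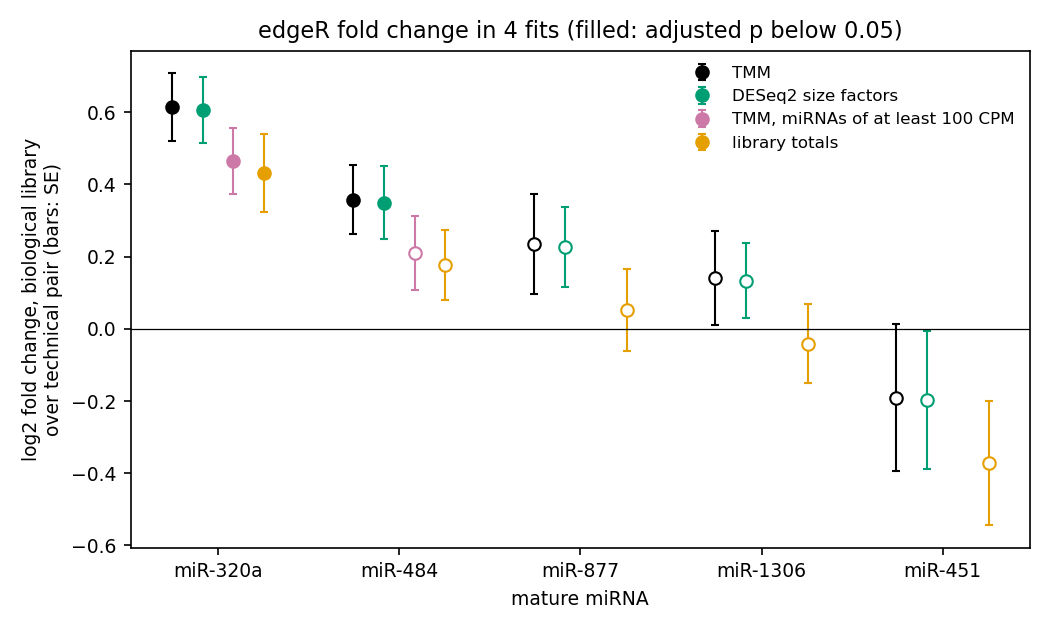
edgeR log2 fold change of the biological library over the technical pair for the 5 members tested, in 4 fits that differ in scaling or in the miRNAs fitted. Points are estimates, bars are standard errors, and filled points have an adjusted p below 0.05. miR-320a is filled in all 4 fits and miR-484 in those with TMM or DESeq2 size factors over all tested miRNAs.

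The miRNAs with the most similar pattern over the 3 libraries were sought for the 2 members with a mean of at least 100 CPM, among 166 others at that level. Likeness was the Euclidean distance of centred log2(CPM + 1) values. For miR-320a these were miR-1271 (distance 0.10; 331, 349 and 443 CPM) and miR-98 (0.11; 194, 226 and 312 CPM). For miR-484 they were miR-375 (0.02; 381396, 358079 and 416586 CPM), the most abundant miRNA of the libraries, and miR-103 (0.05; 62480, 60064 and 68018 CPM). These distances rest on 3 libraries of 2 preparations and are a description.

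A list of 18 further base names of non-canonical origin was set beside the members, and 7 of them were in the count table. The count table also holds miRNAs without a read, with 267 of its 793 at 0 in every library. A base name missing from it was therefore not counted under that name, and its level in the vesicles is unknown. Of the 9 mirtrons on that list, only miR-1224 was in the count table, at 24.3, 22.2 and 20.7 CPM. It was therefore below miR-877 in every library. The most abundant of the list was miR-1839, known to derive from a small nucleolar RNA (snoRNA), at 1329, 1449 and 1497 CPM, between miR-320a and miR-484. miR-664b, of snoRNA origin too, had 418, 453 and 471 CPM. miR-1260b, whose sequence resembles a part of transfer RNAs, had 49.2, 51.3 and 75.6 CPM. miR-1248, miR-1291 and miR-664a had at most 6 counts in any library.

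**Figure D4:**
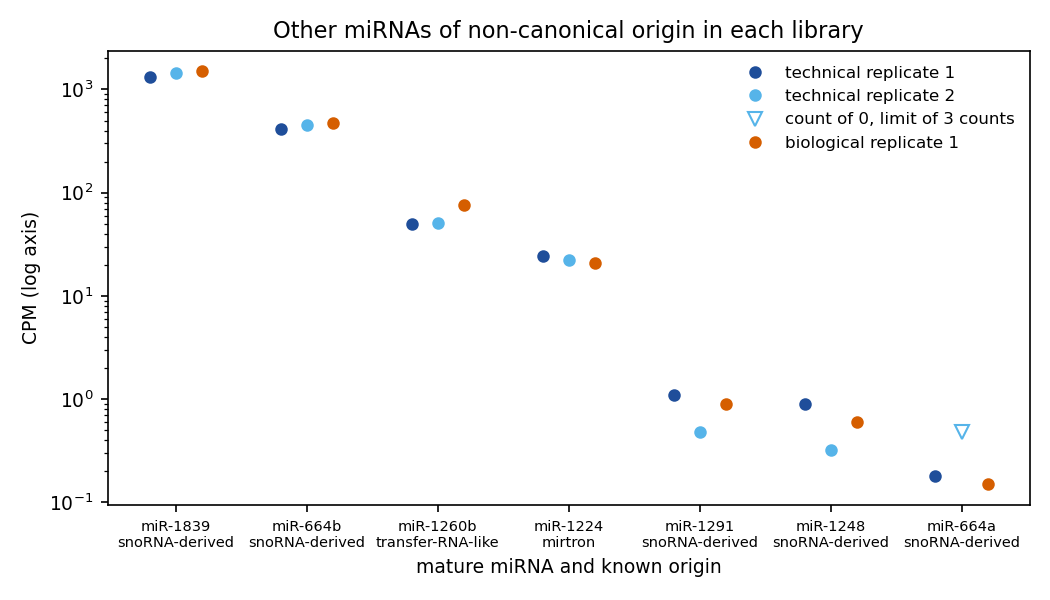
Level in CPM (log axis) of the 7 further miRNAs of non-canonical origin in each library, with their known origin below the name. Points are single libraries and the open triangle marks a count of 0 at its limit of 3 counts. miR-1839 is the highest, at 1329 to 1497 CPM, and 3 miRNAs lie near or below 1 CPM.

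Of the 4 miRNAs on this list that could be tested, edgeR's test, again against the technical spread alone, called 3 higher in the biological library and 0 lower, as at an unadjusted p below 0.05. Over all miRNAs it called 17.7% higher and 20.2% lower. DESeq2 called 2 of the list higher and 0 lower, and edgeR with library totals called 1 higher and 0 lower. miR-1260b was higher by 0.77 ± 0.14 on the log2 scale (SE; edgeR, adjusted p = 1.0e-06) and passed in each of 6 other settings. miR-1839 (0.29 ± 0.09, adjusted p = 0.0077) and miR-664b (0.29 ± 0.10, adjusted p = 0.0095) did not pass with library totals, without a count filter or with only miRNAs of at least 100 CPM, and miR-664b also not in DESeq2. miR-1224, at 0.02 ± 0.19, did not pass (adjusted p = 0.95), and its sign was negative with library totals (-0.17). The median over these 4 was 0.29, and 0.11 with library totals.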

How the data were processed

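Small RNA was sequenced from vesicle RNA in 3 libraries, per the labels' protocols. The authors deposited raw read counts per mature miRNA and precursor in the count table, beside CPM (count over the column total, 2 decimals), and a second table of log2 values deposited for 459 rows (6 of them rows of these miRNAs). The submitters' processing notes name build UMD3.1 and edgeR. For the aligner and counter, the sources used here give no name.

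Of the rows of a mature miRNA, the highest was kept, and CPM were taken over the total of the kept rows. edgeR 4.0.16 (TMM, quasi-likelihood test, R 4.3.3, Benjamini-Hochberg, threshold 0.05) was fitted to all 367 miRNAs that reached 10 counts in any library. The fit was first tried on simulated counts in which every library had the same spread. No added spread between preparations was simulated, so that trial cannot show how the calls behave between preparations. Standard errors came from the fold and the F statistic. DESeq2 1.42.0, library totals, other filters and summed rows were alternatives. The named miRNAs are the members, the 18 listed names, the 2 nearest patterns per member of at least 100 CPM, miR-144 and miR-375. The plan for these names also asked for miRNAs with shared seeds, for which no sequence was used here. miR-486 comes from the marker list. Members and lists were chosen with earlier results of these data known.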

Additional observations from a re-analysis of the deposited data

How the results depend on the processing

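Of the 5 members tested, miR-320a kept its call in all 7 other settings, and miR-877 and miR-451 kept their direction and stayed uncalled in all 6 that held them. miR-484 did not pass with library totals (0.18, adjusted p = 0.23) or with miRNAs of at least 100 CPM (0.21, adjusted p = 0.089), which left 1 member called, and it passed in the other 5. With library totals the sign turned for miR-1306 (-0.041) and miR-1224 (-0.17), and that of miR-1224 also without a count filter (-0.013) and without miR-375 (-0.0030), the last a setting chosen after seeing the data. The causes were not tested. Over all miRNAs, 139 calls (65 higher, 74 lower) became 24 higher and 86 lower with library totals, 86 (44 higher, 42 lower) with DESeq2 and 70 (26 higher, 44 lower) among 167 miRNAs of at least 100 CPM. TMM moved the biological library by 0.18 log2 units.

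Levels depend on the total they are divided by. Summing precursor rows gave 3887 CPM for miR-320a, whose 2 identical rows then add up, 466.3 for miR-484, 73.0 for miR-1306, 53.7 for miR-877, 14.7 for miR-451 and 4495 for all members, against 3358. The authors' CPM gave 1943, 466.3, 73.0, 53.7 and 14.7 for these miRNAs and 2551 for the sum. Without miR-375 in the total, the levels were 4242, 1016, 158.6, 117 and 31.8, with 0.723 for miR-320b, 0.190 for miR-1225-3p and 5566 for the sum. With a pseudocount of 0.1 CPM in place of 1, the log2 ratios of miR-320b and miR-1225-3p were -0.79 and 0.63 in place of -0.29 and 0.09, at 4 counts or fewer. Leaving out a technical library turned the sign of the untested log2 ratio of miR-1306, which ran from -0.080 to 0.0023, and of miR-1225-3p, which ran from -0.014 to 0.20. With 2 preparations, how far a level or ratio moves when a library is left out is set by the spread itself, so these values are no test of stability. No test was possible with a library left out, since no residual degree of freedom remains. No paired analysis was possible because the groups share only replicate number 1.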

Other observations

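MIR2378, the neighbour of MIR877 in the RefSeq table, was looked up after the values of miR-877 were seen. miR-2378 was among the 267 of 793 miRNAs with 0 counts in all 3 libraries. The fixed limit of 3 counts is 0.541 CPM in technical replicate 1, 0.480 CPM in technical replicate 2 and 0.447 CPM in the biological replicate.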
